A study of Homo sapiens with 21 samples.

Results

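The 41 genes described here build and guard the protein-folding compartment of the cell, the endoplasmic reticulum (ER), or belong to the stress programme run by the transcription factor ATF4. They were listed by gene symbol, with earlier results of these data known, and are 41 of the 37355 genes in the deposited count table. They were read as 2 sets: 24 folding genes, with the stress sensors and regulators that control them, and 17 genes made up of ATF4 and genes it is known to act on. Each symbol had 1 row in the table, and all 41 passed the filter on low counts and were among the 17650 genes tested. RNA was sequenced from BT474, an established human breast cancer line of luminal type that carries extra copies of the HER2 gene, in 7 groups of 3 libraries. BT-TPR1 and BT-TPR2 were BT474-derived pools resistant to trastuzumab plus pertuzumab, and BT-TR1 and BT-TR2 were pools resistant to trastuzumab alone. All 4 had been kept free of antibody for 7 days when they were collected. Trastuzumab and pertuzumab are therapeutic antibodies that bind different parts of the HER2 receptor. Parental BT474 cells were given 10 µg/mL trastuzumab for 3 days, or 10 µg/mL of each antibody for 3 days, or were left untreated. Each kind of resistance was represented by 2 pools, so the pools and not the 3 libraries of a pool are its independent cases. The labels do not say whether the 3 libraries of a group came from separate cultures, so p-values measure only the spread between these libraries, which may be technical.

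As background, proteins bound for the membrane or for secretion enter the ER, where chaperones such as HSPA5 (BiP), HSP90B1 (GRP94), calreticulin (CALR) and calnexin (CANX) hold them while enzymes of the protein disulfide isomerase family join their cysteines. When unfolded proteins build up, the sensors ATF6, IRE1 (encoded by ERN1) and PERK (EIF2AK3) start the unfolded protein response: ATF6 and the spliced form of XBP1 switch on chaperone and ER degradation genes, and PERK phosphorylates the initiation factor eIF2α, which lowers general protein synthesis and raises translation of the ATF4 mRNA. ATF4 is also raised by lack of amino acids through another eIF2α kinase, and it acts on genes of amino acid synthesis and transport and on the stress regulators DDIT3 (CHOP), TRIB3 and SESN2. Counts per gene do not show the splicing of XBP1, the cleavage of ATF6 or the translation of ATF4.

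The 21 libraries held 7939270 to 21746391 counts assigned to genes, of which 13.7% to 33.3% were mitochondrial. In every group the libraries numbered 1 differed from those numbered 2 and 3 along gene GC content: the correlation across 17554 genes between GC content and a library's deviation from its group mean was 0.313 to 0.627 in the 7 libraries numbered 1 and -0.537 to 0.0828 in the others. The folding genes had a median GC content of 45.9%, the ATF4 set 52.3% and all tested genes 47.6%, and calls of the 41 genes that ended when GC content was corrected are named beside their values. All 8 luminal epithelial markers were above 1 CPM (the usual scaling of a gene's count to its library's normalised total) in every group. The 3 leukocyte markers in the table summed to at most 0.449 CPM in any library, with PTPRC at 0 in 6 of the 7 groups. Of 5 fibroblast markers 2 exceeded 1 CPM in each group, and the 5 together summed to 19.9 to 62.4 CPM. The 3 endothelial markers summed to 5.39 to 18.4 CPM. The luminal list summed to 7850 to 14400 CPM in the pools and 7580 to 10500 CPM in treated cells, against 10900 to 15400 CPM in untreated cells. GATA3 and ESR1, luminal transcription factors, fell in all 4 pools (-0.91 to -1.59 and -0.51 to -0.97, log2 fold change against untreated cells). Not all 8 luminal markers did so. At an unadjusted p under 0.05 (edgeR), 5 of the 8 were lower in BT-TR1, 3 in BT-TR2, 4 in BT-TPR1 and 3 in BT-TPR2. In BT-TPR2, 1 was higher. The share of all genes at that threshold is not given here, so these counts are not read as a result about the list. VIM fell in all 4 pools (-0.96 to -2.97) and rose with either treatment. CDH5 rose in all 4 pools (1.80 to 4.41), to group means of at most 2.60 CPM, but the endothelial list as a whole did not. It summed to 5.39 to 8.01 CPM in BT-TR1, 10.7 to 16.4 in BT-TR2, 6.23 to 8.91 in BT-TPR1 and 5.45 to 7.39 in BT-TPR2. In untreated cells the sum was 9.51 to 18.4 CPM. The part of these changes in the results below was not tested. Processed or unprocessed pseudogenes named after them are annotated for 7 of the 41 genes (PDIA3, XBP1, ATF4, ASNS, PSAT1, PSPH and MTHFD2), so reads could be split or lost between copies there. In bulk RNA, fewer cells of a kind and less RNA per cell cannot be told apart.

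Per kilobase of annotated exon, the folding genes spanned a wide range of levels in untreated cells. XBP1, the transcription factor of the IRE1 branch, was highest at 561 ± 32.7 CPM per kb (SD, n = 3), followed by CALR at 494 ± 77.2, CANX at 367 ± 64.3, HSPA5 at 293 ± 45.5 and P4HB, the founding disulfide isomerase, at 203 ± 20.9. CALR and CANX, and CANX and HSPA5, lay within their summed SDs of each other. ERN1 was lowest of the 24 at 1.78 ± 0.0829 CPM per kb. ATF4 led its own set at 88.0 ± 7.56 CPM per kb in untreated cells, above ALDH18A1 (proline synthesis) at 68.0 ± 2.47 and TRIB3 (a pseudokinase that feeds back on the stress response) at 37.1 ± 10.0. CHAC1, which breaks down glutathione, and ATF3, a stress-induced transcription factor, were the 2 lowest at 1.45 ± 0.649 and 0.379 ± 0.0521 CPM per kb, so their fold changes rest on few counts. XBP1 was first of the folding genes and ATF4 first of its own set in all 7 groups, and by group mean CANX stood above CALR in the 4 resistant pools. In BT-TR2 and BT-TPR1 CANX and CALR lay within their summed SDs of each other, and in BT-TR2 library 1 CALR was the higher.

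Some of these genes hold, near their start, the letters of sequence elements through which the unfolded protein response and ATF4 are known to act. The stretches are shown for the 13 genes with a match before their start. In windows of 250 bases before to 50 bases after each gene's start (RefSeq, GRCh38.p14), 36 of the 41 genes had an entry, and PDIA3, PSPH, SHMT2, NUPR1 and PYCR1 are named only. Both strands were searched for the ER stress element (ERSE, CCAAT and CCACG with 9 free bases between them), its second form (ERSE-II, ATTGG and CCACG with 1 free base between them), the unfolded protein response element (UPRE, TGACGTGG) and the amino acid response element that ATF4 binds with C/EBP partners (CARE, TGATGNAA). An ERSE was found in 6 of 23 folding genes and in 0 of 13 genes of the ATF4 set, against 0.0769% of all 35116 promoters, and an ERSE-II in 3 of 23 and 0 of 13, against 0.0541%. The UPRE was found in HYOU1, where it overlaps an ERSE-II, and in ALDH18A1, against 0.729% of all promoters. The CARE was found in ASNS, CHAC1 and ATF3, 3 of 13 in the ATF4 set, and in HERPUD1 among the folding genes, against 3.62% of all promoters. A match describes letters and not a bound site. The stretches below read 5′ to 3′ on the gene's strand with the element, which may lie on either strand, in capitals. The HSPA5, CALR, CANX, CRELD2 and XBP1 stretches show an ERSE, and that of HSP90B1 shows 2, 1 on each strand. Those of SDF2L1 and HERPUD1 show an ERSE-II, and the HERPUD1 stretch also holds a CARE. That of HYOU1 shows a UPRE overlapping an ERSE-II and a second ERSE-II, and those of ASNS, CHAC1 and ATF3 show a CARE. That of ALDH18A1 shows a UPRE. The stretches lie at chr9:125241376-125241424, minus strand (HSPA5); chr12:103930201-103930354, plus strand (HSP90B1); chr19:12938369-12938417, plus strand (CALR); chr5:179698763-179698811, plus strand (CANX); chr22:49918539-49918587, plus strand (CRELD2); chr22:28800588-28800636, minus strand (XBP1); chr22:21642099-21642139, plus strand (SDF2L1); chr16:56931951-56932050, plus strand (HERPUD1); chr11:119057259-119057408, minus strand (HYOU1); chr10:95656749-95656786, minus strand (ALDH18A1); chr7:97872454-97872491, minus strand (ASNS); chr15:40953247-40953284, plus strand (CHAC1) and chr1:212565201-212565238, plus strand (ATF3).
HSPA5: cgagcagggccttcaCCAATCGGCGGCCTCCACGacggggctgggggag
HSP90B1: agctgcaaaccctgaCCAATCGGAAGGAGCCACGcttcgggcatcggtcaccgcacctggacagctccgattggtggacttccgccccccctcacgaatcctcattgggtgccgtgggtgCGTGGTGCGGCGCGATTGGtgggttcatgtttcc
CALR: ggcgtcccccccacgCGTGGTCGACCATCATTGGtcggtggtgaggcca
CANX: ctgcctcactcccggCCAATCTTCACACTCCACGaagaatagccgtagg
CRELD2: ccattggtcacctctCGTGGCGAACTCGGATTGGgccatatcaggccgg
XBP1: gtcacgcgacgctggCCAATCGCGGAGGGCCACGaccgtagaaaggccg
SDF2L1: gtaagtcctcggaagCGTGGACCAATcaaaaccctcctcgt
HERPUD1: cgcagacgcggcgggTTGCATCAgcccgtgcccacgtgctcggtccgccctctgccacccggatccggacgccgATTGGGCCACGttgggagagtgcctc
HYOU1: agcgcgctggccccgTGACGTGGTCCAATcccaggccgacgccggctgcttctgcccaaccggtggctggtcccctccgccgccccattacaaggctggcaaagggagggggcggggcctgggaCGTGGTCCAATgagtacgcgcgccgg
ALDH18A1: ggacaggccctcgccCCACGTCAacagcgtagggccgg
ASNS: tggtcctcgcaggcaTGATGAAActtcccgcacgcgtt
CHAC1: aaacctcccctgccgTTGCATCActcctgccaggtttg
ATF3: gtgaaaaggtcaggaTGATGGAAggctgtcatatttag

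In the 4 resistant pools more folding genes fell than rose against untreated cells, while ATF4 mRNA rose in each. The genes of the folding set took 0.64% to 0.799% of all normalised counts in BT-TPR1, 0.666% to 0.821% in BT-TPR2, 0.891% to 1.09% in BT-TR1 and 0.783% to 0.872% in BT-TR2, against 1.07% to 1.31% in untreated cells. The BT-TR1 range overlapped the untreated one and the other pools lay below it. In BT474 cells given antibody for 3 days the share was 0.949% to 1.08% with trastuzumab and 0.89% to 1.05% with trastuzumab plus pertuzumab. The share of the ATF4 set covered 0.125% to 0.16% over the 12 resistant libraries and 0.118% to 0.145% over the 3 untreated ones, which overlap. Below, "rose" and "fell" are used of genes with an adjusted p under 0.05 (edgeR quasi-likelihood test, Benjamini-Hochberg adjustment over all 17650 genes tested), and a log2 fold change is the first-named group over the second. The 6 comparisons against untreated cells use the same 3 untreated libraries.

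**Figure D1:**
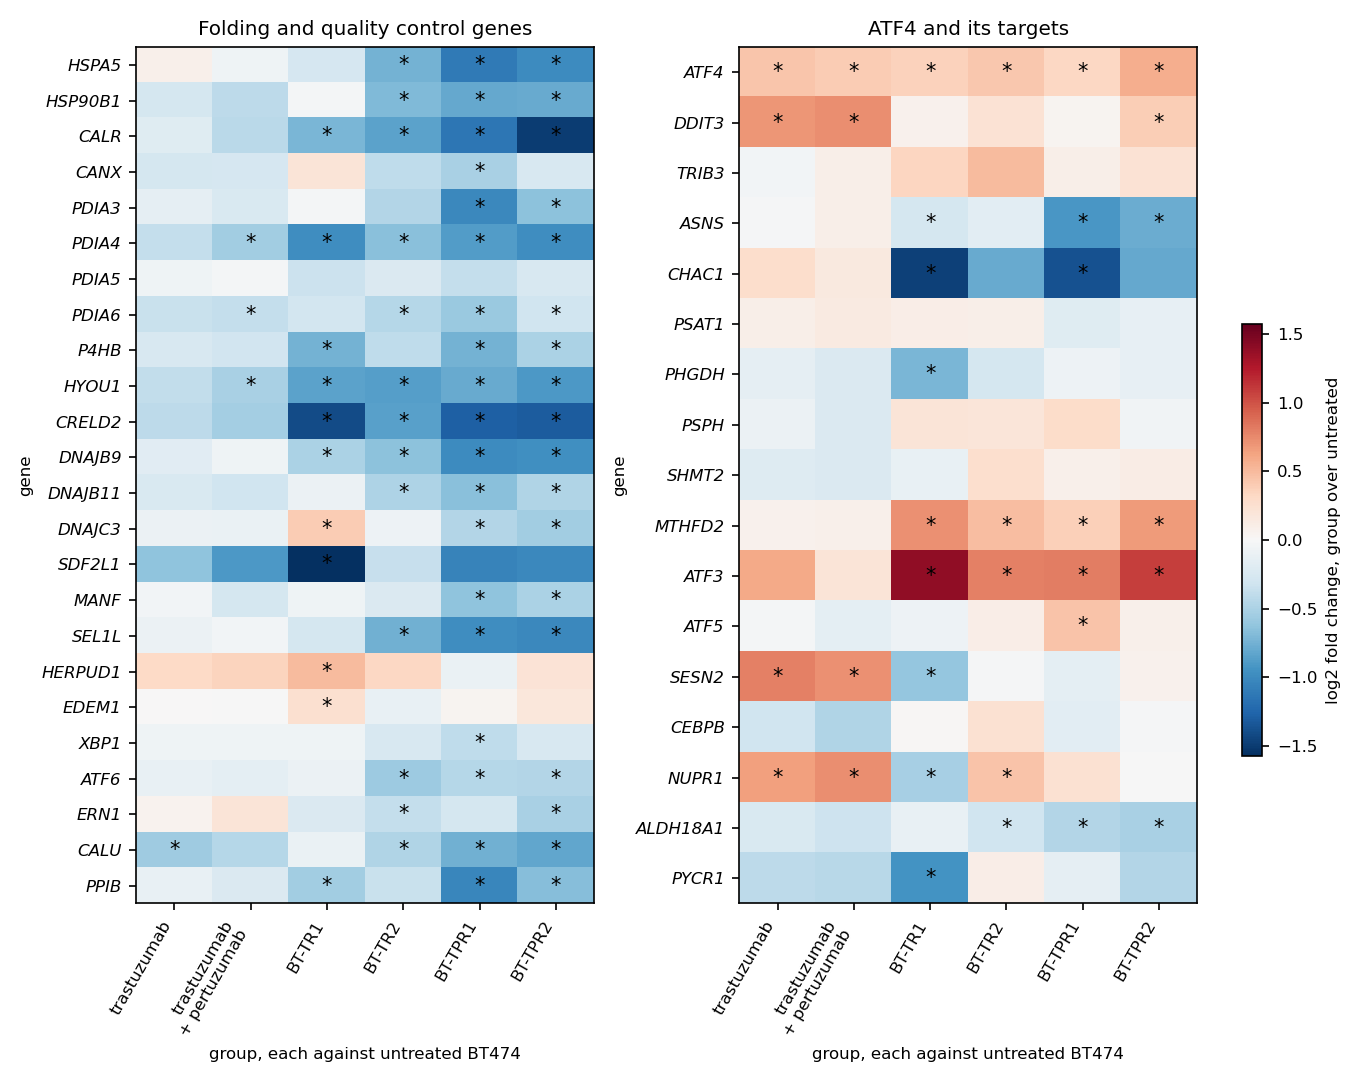
Log2 fold change of each of the 41 genes (rows; folding genes and the ATF4 set apart) in 6 groups (columns), each against untreated BT474 cells, with called changes marked. Folding genes are mostly below 0 in the resistant pools, where 19 (BT-TPR1), 18 (BT-TPR2), 8 (BT-TR1) and 13 (BT-TR2) of 24 fell, and ATF4 lies above 0 in all 6 columns.

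In the dual-resistant pools most of the folding set fell. Of the 24 genes, 19 fell and 0 rose in BT-TPR1, where 14.4% of all tested genes fell and 12.9% rose. In BT-TPR2, 18 fell and 0 rose, where 16.0% of all tested genes fell and 15.6% rose. The median log2 fold change of the 24 was -0.75 in BT-TPR1 and -0.59 in BT-TPR2, against medians of -0.003 and -0.01 over all genes tested. The 3 libraries of the pool lay below all 3 untreated libraries for 21 of the 24 genes in BT-TPR1, against 20.0% of all tested genes, and for 19 in BT-TPR2, against 19.1%. HSPA5, the main ER chaperone and the brake on all 3 sensors, had 499, 471 and 613 CPM in the 3 BT-TPR1 libraries and 591, 491 and 639 CPM in the BT-TPR2 libraries, against 1041, 1349 and 1041 CPM in untreated cells. Every library of both pools lay below every untreated one, and the mean was 53.9% lower in BT-TPR1 (log2 fold change -1.12 ± 0.14 (SE), adjusted p = 1.32e-05) and 49.8% lower in BT-TPR2 (log2 fold change -0.996 ± 0.14 (SE), adjusted p = 3.39e-05). CALR, a calcium-binding chaperone of glycoproteins, had 566, 536 and 732 CPM in BT-TPR1 and 510.4, 387 and 528 CPM in BT-TPR2, against 1301, 1568 and 1155 CPM in untreated cells. It was the largest fall of the set in BT-TPR2 (log2 fold change -1.50 ± 0.16 (SE), adjusted p = 9.41e-07), and its BT-TPR1 value was -1.13 ± 0.16 (SE; adjusted p = 3.06e-05), again without overlap between the groups.

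CRELD2, an ER protein with disulfide isomerase activity that is a known target of the unfolded protein response, had 23.5, 14.2 and 15.1 CPM in BT-TPR1 and 24.3, 13.9 and 13.7 CPM in BT-TPR2, against 58.5, 37.9 and 32.5 CPM in untreated cells. In each of these groups the library numbered 1 was the highest, and no library of either pool reached the lowest untreated value. CRELD2 fell by 1.28 ± 0.29 in BT-TPR1 and by 1.31 ± 0.29 in BT-TPR2 on the log2 scale (SE; adjusted p = 0.00326 and 0.00225). PPIB, the ER prolyl isomerase cyclophilin B, had 44.4, 38.1 and 47.7 CPM in BT-TPR1, against 102, 87.7 and 75.2 CPM in untreated cells. All 3 pool libraries were lower (log2 fold change -1.02 ± 0.17 (SE), adjusted p = 0.000171). Of the PPIB exons 27.2% overlap SNX22 on the other strand, so without stated strandedness reads of the 2 cannot be told apart. SEL1L, the scaffold of the ER degradation complex that removes misfolded proteins, had 299, 295 and 354 CPM in BT-TPR2, against 552, 759 and 611 CPM in untreated cells. The 2 groups did not overlap, and the mean in BT-TPR2 was 50.7% lower (log2 fold change -1.02 ± 0.15 (SE), adjusted p = 5.02e-05).

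The other folding genes that fell in BT-TPR1 did so by smaller amounts. HSP90B1, CANX, PDIA3, PDIA4, PDIA6, P4HB, HYOU1, DNAJB9, DNAJB11, DNAJC3, MANF, SEL1L, XBP1, ATF6 and CALU had log2 fold changes between -1.01 (PDIA3) and -0.40 (XBP1). In BT-TPR2 the others that fell were HSP90B1, PDIA3, PDIA4, PDIA6, P4HB, HYOU1, DNAJB9, DNAJB11, DNAJC3, MANF, ATF6, ERN1, CALU and PPIB, between -0.97 (PDIA4) and -0.32 (PDIA6). XBP1 had 1265, 1202 and 1397 CPM in BT-TPR1 and 1506, 1261 and 1510 CPM in BT-TPR2, against 1655, 1811 and 1626 CPM in untreated cells. Its libraries lay below all untreated ones in both pools, but the fall passed the test in BT-TPR1 (log2 fold change -0.40 ± 0.11 (SE), adjusted p = 0.0106) and not in BT-TPR2 (log2 fold change -0.25 ± 0.11 (SE), adjusted p = 0.085; adjusted p = 0.0325 with the replicate number as a block). Of the genes that did not pass, EDEM1, which marks glycoproteins for degradation, was at 0.04 ± 0.10 in BT-TPR1 and 0.18 ± 0.10 in BT-TPR2, and HERPUD1, an ER degradation adaptor and ERSE-II gene, at -0.10 ± 0.12 and 0.21 ± 0.12 (log2 fold change ± SE). SDF2L1, an HSPA5 partner with 18 counts in its poorest library, was at -1.06 ± 0.49 in BT-TPR1 (adjusted p = 0.12) and -1.02 ± 0.49 in BT-TPR2 (adjusted p = 0.122). Its levels were 7.59, 3.84 and 3.40 CPM in BT-TPR1, 7.50, 4.88 and 2.88 CPM in BT-TPR2 and 18.5, 6.72 and 5.94 CPM in untreated cells. SDF2L1 passed in both pools when the replicate number was a block (adjusted p = 0.000167 in BT-TPR1; 0.000193 in BT-TPR2), as did PDIA5 (0.00244; 0.0219). ERN1 also passed in BT-TPR1 (0.0361). The block takes the numbers to pair the libraries, which is not shown for replicate 2 in either pool.

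Fits without 1 library gave 15 to 20 folding calls in BT-TPR1 and 13 to 19 in BT-TPR2. In BT-TPR1 the calls of CANX, DNAJC3, XBP1 and ATF6 were lost without untreated replicate 2, the untreated library with the highest values of these 4 genes, at adjusted p = 0.0615 to 0.127. CANX was also lost without BT-TPR1 replicate 1 and, with XBP1, without BT-TPR1 replicate 2. Scaling by library size alone, which moved the median of all genes by 0.14, left CANX, DNAJC3, XBP1 and ATF6 uncalled (adjusted p = 0.0538 to 0.108). Of all calls in BT-TPR1 against untreated cells 63.2% were then rises, against 47.4% as scaled here. In BT-TPR2, PDIA6 was lost in 12 of 21 such fits (adjusted p = 0.0511 to 0.214). P4HB was lost without untreated replicates 1 or 2 or BT-TPR2 replicates 2 or 3, PDIA3 and DNAJB11 without untreated replicate 2 or BT-TPR2 replicate 2, and ATF6 without untreated replicate 2.

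**Figure D2:**
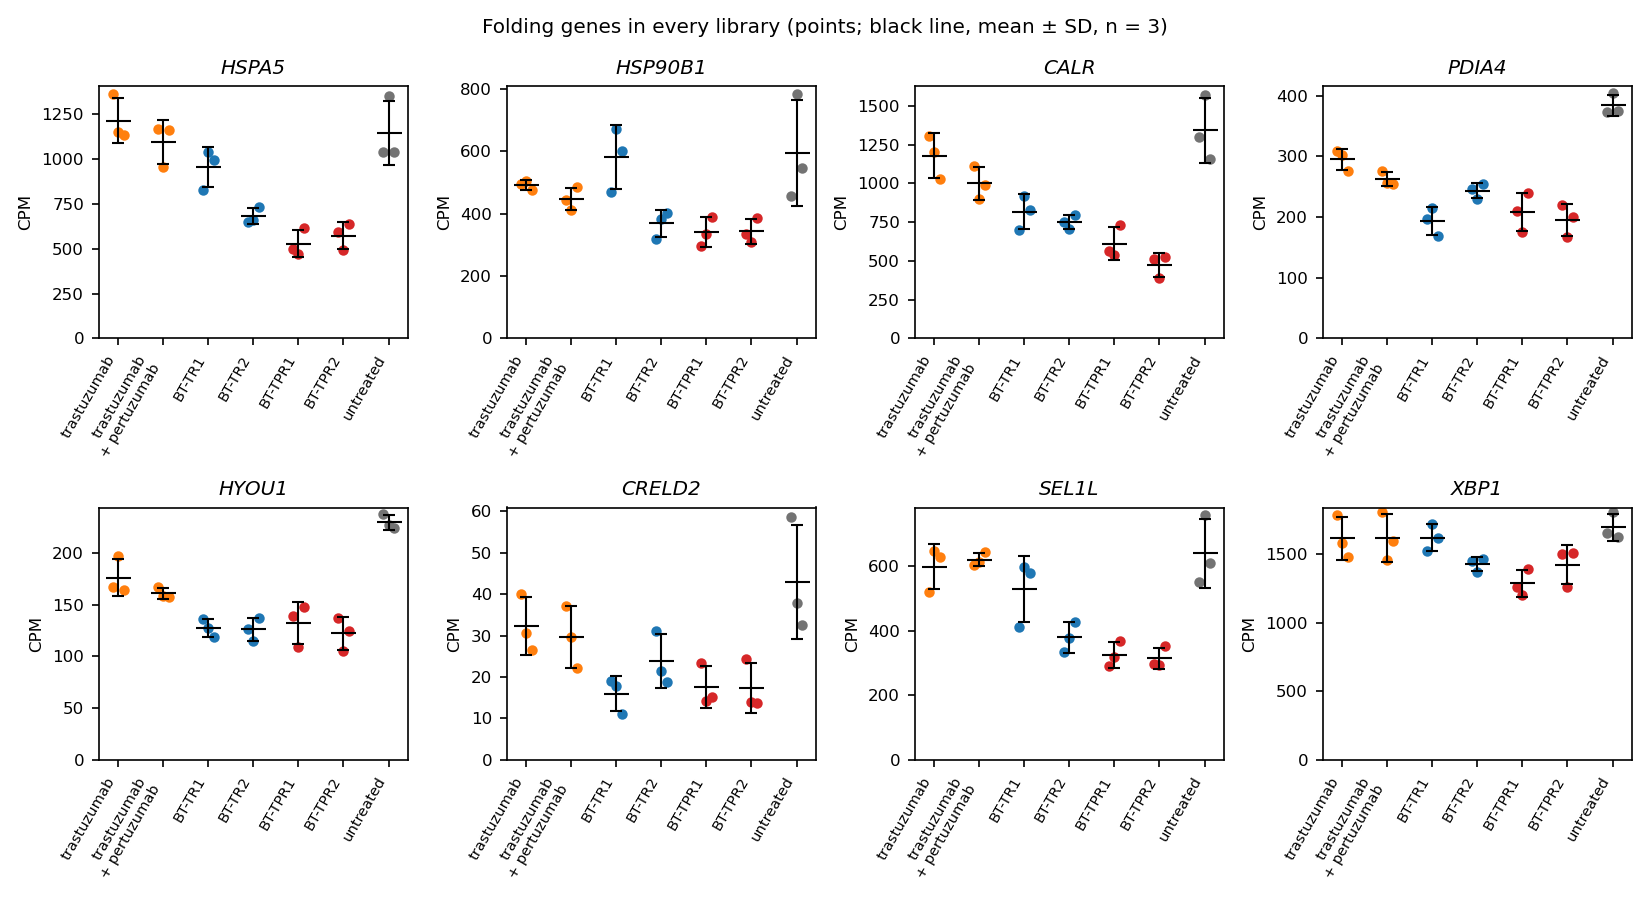
CPM (y axes from 0) of 8 folding genes in each library (points; black line, mean ± SD, n = 3) of the 2 antibody-treated groups, the 4 resistant pools and untreated cells (x axis). HSPA5, CALR, HYOU1, CRELD2 and SEL1L in BT-TPR1 and BT-TPR2 lie below every untreated library, with HSPA5 between 471 and 639 CPM in these pools and at 1041 or more in untreated cells.

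In the trastuzumab-resistant pools 13 folding genes were called in BT-TR2 and 11 in BT-TR1, where 3 of the calls were rises. In BT-TR2, 13 of 24 genes fell and 0 rose, where 12.1% of all tested genes fell and 12.7% rose, with a median log2 fold change of -0.45 against -0.002 over all genes. All BT-TR2 libraries lay below all untreated ones for 16 of the 24, against 18.4% of all tested genes. In BT-TR1, 8 fell and 3 rose, where 22.3% fell and 21.3% rose, with a median of -0.24 against -0.01, and 12 lay below without overlap, against 25.4%. HYOU1, a large ER chaperone that also acts as exchange factor for HSPA5, had 136, 128 and 119 CPM in BT-TR1 and 126, 115 and 137 CPM in BT-TR2, against 237, 227 and 224 CPM in untreated cells. The values of both pools were close to each other and below every untreated library (BT-TR1 -0.85 ± 0.12, adjusted p = 3.23e-05; BT-TR2 -0.86 ± 0.12, adjusted p = 3.55e-05; log2 fold change ± SE). PDIA4, a disulfide isomerase, had 198, 215 and 169.6 CPM in BT-TR1 and 247, 229.5 and 255 CPM in BT-TR2, against 372, 404 and 375 CPM in untreated cells. It fell in both (-0.98 ± 0.12, adjusted p = 6.04e-06 in BT-TR1; -0.66 ± 0.12, adjusted p = 0.000518 in BT-TR2), with no overlap with untreated cells.

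HSPA5 had 826, 1039 and 997 CPM in BT-TR1 and 649, 660.2 and 732 CPM in BT-TR2, against 1041, 1349 and 1041 CPM in untreated cells. Both pools lay below all untreated libraries. In BT-TR1 the margin was narrow and the difference did not pass the test (log2 fold change -0.26 ± 0.14 (SE), adjusted p = 0.14). In BT-TR2 the margin was wide and the difference passed (log2 fold change -0.75 ± 0.14 (SE), adjusted p = 0.000775). CALR had 696, 921 and 829.6 CPM in BT-TR1 and 752, 704 and 793 CPM in BT-TR2, against 1301, 1568 and 1155 CPM in untreated cells. It fell in both pools (BT-TR1 -0.72 ± 0.15, adjusted p = 0.00139; BT-TR2 -0.84 ± 0.15, adjusted p = 0.000634) without overlap. CRELD2 had 19.1, 17.8 and 11.1 CPM in BT-TR1 and 31.2, 21.4 and 18.9 CPM in BT-TR2, against 58.5, 37.9 and 32.5 CPM in untreated cells. Its fall was larger in BT-TR1 (log2 fold change -1.41 ± 0.30 (SE), adjusted p = 0.00123) than the value in BT-TR2 (log2 fold change -0.85 ± 0.29 (SE), adjusted p = 0.0381), where the call was lost without untreated replicate 1 or 2 or BT-TR2 replicate 2 or 3 (adjusted p = 0.0542 to 0.191). The direct comparison of the pools for CRELD2 did not pass (adjusted p = 0.184).

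SDF2L1 had 3.63, 4.18 and 2.38 CPM in BT-TR1, against 18.5, 6.72 and 5.94 CPM in untreated cells. Library 1 of untreated cells was far above the other 2, and the fall (log2 fold change -1.57 ± 0.53 (SE), adjusted p = 0.0225) was lost without untreated replicate 1, BT-TR1 replicate 1 or BT-TR1 replicate 3 (adjusted p = 0.0518 to 0.211). SEL1L had 335, 377 and 428 CPM in BT-TR2, against 552, 759 and 611 CPM in untreated cells, with no overlap (log2 fold change -0.75 ± 0.15 (SE), adjusted p = 0.00127). Besides these, HSP90B1, PDIA6, DNAJB9, DNAJB11, ATF6, ERN1 and CALU fell in BT-TR2, between -0.69 (HSP90B1) and -0.37 (ERN1). P4HB, DNAJB9 and PPIB fell in BT-TR1, between -0.74 (P4HB) and -0.50 (DNAJB9). XBP1 had 1522, 1720 and 1621 CPM in BT-TR1 and 1455, 1370 and 1464 CPM in BT-TR2, against 1655, 1811 and 1626 CPM in untreated cells. BT-TR1 overlapped untreated cells (-0.07 ± 0.11, adjusted p = 0.644) and BT-TR2 lay just below them (-0.25 ± 0.11, adjusted p = 0.103, and 0.0404 with the replicate number as a block).

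The 3 folding genes that rose in BT-TR1 were HERPUD1, DNAJC3 (p58IPK, an inhibitor of PERK and a partner of HSPA5) and EDEM1. HERPUD1 had 259.9, 268 and 267 CPM in BT-TR1, against 199, 184 and 179.5 CPM in untreated cells, with all 3 pool libraries higher (log2 fold change 0.50 ± 0.12 (SE), adjusted p = 0.00328). DNAJC3 had 95.2, 120.2 and 116 CPM in BT-TR1, against 79.9, 96.5 and 73.8 CPM in untreated cells, and the lowest pool value lay below the highest untreated one (log2 fold change 0.40 ± 0.12 (SE), adjusted p = 0.0121, and 0.0514 without untreated replicate 3). EDEM1 was at 0.25 ± 0.10 (SE; adjusted p = 0.0435), and its call was lost in 5 of 21 fits without 1 library. In BT-TR1, log2 fold changes over all genes went with GC content (r = -0.478 over 17554 genes), and after GC correction the calls of P4HB, DNAJC3, SDF2L1 and EDEM1 were lost. The part of GC content in these results was not tested further.

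In BT-TR2 the CALU call was lost in 11 of 21 fits without 1 library and that of ERN1 in 3. The count of folding calls fell to 8 without untreated replicate 2, where HSP90B1, CRELD2, DNAJB11, ERN1 and CALU were lost (adjusted p = 0.0542 to 0.291 over these 5 genes with NUPR1 and ALDH18A1 of the ATF4 set, which were lost too). In BT-TR2 a block for the replicate number gave 18 falls and 1 rise among the folding genes, the rise being HERPUD1 (0.33 on the log2 scale, adjusted p = 0.00567). CANX, PDIA3, P4HB, XBP1 and PPIB were the falls gained. With this block, 4027 of all 17650 tested genes fell and 4049 rose in BT-TR2. In BT-TR1 the blocked fit added falls of PDIA5, PDIA6 and SEL1L (adjusted p = 0.00532 to 0.0176). DNAJB9 in BT-TR1 was lost without untreated replicate 2 or BT-TR1 replicate 1, and PPIB without untreated replicate 1 or BT-TR1 replicate 3. In BT-TR1, leaving out replicate 3 of the pool left 13 calls among all 41 genes in place of 20.

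Set against each other, the 2 trastuzumab-resistant pools differed in 10 of the 41 genes. In BT-TR2 relative to BT-TR1, 7 of 24 folding genes fell and 0 rose, where 8.09% of all tested genes fell and 9.64% rose. CANX, the membrane-bound relative of CALR, had 1576, 1703 and 1948 CPM in BT-TR2, against 2149, 2867 and 2912 CPM in BT-TR1. No library of BT-TR2 reached the BT-TR1 values (log2 fold change -0.60 ± 0.15 (SE), adjusted p = 0.0125). HSP90B1, the ER form of HSP90, had 318, 384 and 402 CPM in BT-TR2, against 469.6, 672 and 600.5 CPM in BT-TR1, likewise without overlap (log2 fold change -0.66 ± 0.17 (SE), adjusted p = 0.0165). HSPA5, DNAJC3, SEL1L, EDEM1 and ATF6 also fell, by 0.37 to 0.49 on the log2 scale. In the ATF4 set ATF3 fell, while NUPR1, a small chromatin-associated stress protein, and PYCR1, an enzyme of proline synthesis, rose. NUPR1 had 101, 80.8 and 76.2 CPM in BT-TR2, against 49.1, 41.3 and 39.99 CPM in BT-TR1 (log2 fold change 0.98 ± 0.14 (SE), adjusted p = 0.000719). These calls rest on few libraries: without BT-TR1 replicate 2, BT-TR1 replicate 3 or BT-TR2 replicate 1, 1 of the 10 was left, NUPR1, and the folding count was 0 of 7. The differences between these pools also went with GC content over all genes (r = 0.629), and after GC correction 42.5% of all calls were rises, against 54.4% without it. DNAJC3, SEL1L, ATF6, ATF3 and PYCR1 were then no longer called. Scaling by library size alone gave 80.4% rises.

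Between the dual-resistant pools, 0 of the 41 genes passed the test, where 3.45% of all tested genes did. At an unadjusted p under 0.05, 4 folding genes were higher and 1 lower in BT-TPR2 than in BT-TPR1, and 3 and 2 of the ATF4 set. The share of all genes at that threshold is not given here, so these counts are not read as a result about the sets. DESeq2 called 0 folding genes and 1 ATF4 gene, and limma called 0 and 0. The fit with the replicate block passed 6 of the 41 genes. In that fit 1032 of all 17650 tested genes rose and 1087 fell, so the 6 calls were near the share over all genes. HERPUD1, PPIB, DDIT3 and MTHFD2 were higher in BT-TPR2, and PSPH and ATF5 lower (adjusted p = 0.00974 to 0.0489). HSPA5 was 0.12 ± 0.14 on the log2 scale (SE), with a 95% interval of -0.17 to 0.42, and ATF4 0.25 ± 0.11, with an interval of 0.02 to 0.47. A missed threshold does not show that the pools were alike. Leaving out 1 library gave at most 1 call, which 7 such fits did, among them the fit without BT-TPR2 replicate 1.

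Taking the 2 dual-resistant pools together against the 2 trastuzumab-resistant pools, 11 of 24 folding genes fell and 0 rose, where 11.3% of all tested genes fell and 8.45% rose. The median log2 difference of the 24 was -0.28 against 0.01 over all genes. DNAJC3 was lowest, at 57.8, 59.6 and 64.9 CPM in BT-TPR1 and 60.4, 51.3 and 59.8 CPM in BT-TPR2, against 95.2, 120.2 and 116 CPM in BT-TR1 and 72.7, 76.9 and 87.9 CPM in BT-TR2. No dual-resistant library reached any trastuzumab-resistant one (log2 fold change -0.67 ± 0.09 (SE), adjusted p = 1.45e-05). HSPA5 also fell without overlap (log2 fold change -0.55 ± 0.10 (SE), adjusted p = 0.000559), as did DNAJB9, an ER co-chaperone, and MANF, a secreted ER stress protein. HSP90B1, CALR, PDIA3, SEL1L, HERPUD1, CALU and PPIB fell with overlap. HYOU1 (0.00 ± 0.08) and P4HB (-0.05 ± 0.12) did not pass, nor did XBP1 (-0.17 ± 0.08, adjusted p = 0.135). Without BT-TR1 replicate 2, HSP90B1 and PPIB were no longer called (adjusted p = 0.0545 and 0.0632). In the ATF4 set PHGDH and ATF5 rose and ASNS, PSAT1 and ALDH18A1 fell. ASNS showed the largest difference, with no overlap (log2 fold change -0.62 ± 0.07 (SE), adjusted p = 1.1e-06). PHGDH was lost in 12 of 21 fits without 1 library, and the set's count was 3 without BT-TR2 replicate 2, BT-TR2 replicate 3 or BT-TPR1 replicate 1. PSAT1 and ATF5 were not called after GC correction. Each side of this comparison holds 2 pools, and the test takes the spread between libraries within a pool. By library size alone, 61.7% of all calls were rises, and 53.6% with GC correction and the replicate block together, against 42.8% as fitted here.

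After 3 days of antibody few folding genes passed the test, while 20 of the 24 log2 values with trastuzumab and 22 with both antibodies lay below 0. With trastuzumab, 1 of 24 fell and 0 rose, where 3.78% of all tested genes fell and 3.71% rose, and the median log2 fold change was -0.16 against -0.02 over all genes. With trastuzumab plus pertuzumab, 3 fell and 0 rose, where 6.02% fell and 6.39% rose, with a median of -0.26 against -0.01. The 3 treated libraries lay below all untreated ones for 4 genes with trastuzumab, against 12.9% of all tested genes, and for 7 with both antibodies, against 14.5%. HSPA5 had 1361, 1150 and 1131 CPM with trastuzumab and 1166, 955 and 1164 CPM with both antibodies, against 1041, 1349 and 1041 CPM in untreated cells. The ranges overlapped, and neither difference passed (trastuzumab 0.09 ± 0.14, adjusted p = 0.77; both antibodies -0.06 ± 0.14, adjusted p = 0.823). XBP1 was at 1788, 1583 and 1480 CPM with trastuzumab and 1808, 1458 and 1599 CPM with both, against 1655, 1811 and 1626 CPM in untreated cells, again with overlap (adjusted p = 0.758; with both, 0.748).

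The gene that fell with trastuzumab was CALU (calumenin, a calcium-binding protein of the secretory pathway), at 337, 410.3 and 386 CPM, against 441, 706 and 528 CPM in untreated cells. The groups did not overlap (log2 fold change -0.56 ± 0.16 (SE), adjusted p = 0.0421), but the call was lost in 11 of 21 fits without 1 library (adjusted p = 0.0526 to 0.247). With both antibodies PDIA4 had 276, 257 and 255 CPM, against 372, 404 and 375 CPM in untreated cells, and HYOU1 had 167, 158 and 158 CPM, against 237, 227 and 224 CPM. Every treated library was below every untreated one for both genes (PDIA4 -0.55 ± 0.12, adjusted p = 0.00445; HYOU1 -0.51 ± 0.12, adjusted p = 0.00786). PDIA6, another disulfide isomerase, had 179, 142 and 157 CPM with both antibodies, against 217, 216 and 187 CPM in untreated cells (log2 fold change -0.38 ± 0.12 (SE), adjusted p = 0.0411). This call was lost in 8 of 21 fits without 1 library, and 25.2% of its exons overlap ATP6V1C2. In the blocked fit 13 of the 41 genes passed with trastuzumab in place of 5. In that fit 2025 of all 17650 tested genes rose and 2604 fell, so the 13 calls were near the share over all genes. Of the folding genes, PDIA4, PDIA6, HYOU1, CRELD2 and SDF2L1 fell as well as CALU, and HERPUD1 rose. Between the 2 treatments, 0 of 41 genes passed, where 0.867% of all tested genes did. At an unadjusted p under 0.05 the count was 0 in both sets, and DESeq2 and limma called 0. The HSPA5 difference, both antibodies minus trastuzumab alone, was -0.15 ± 0.14 (95% interval -0.44 to 0.15).

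The ATF4 set moved with antibody in 4 genes. ATF4, DDIT3, SESN2 and NUPR1 rose and 0 of 17 fell, both with trastuzumab, where 3.71% of all tested genes rose, and with trastuzumab plus pertuzumab, where 6.39% rose. The medians of the 17 were -0.02 and 0.09, against -0.02 and -0.01 over all genes. DDIT3 encodes CHOP, a transcription factor of prolonged ER stress, and had 45.6, 39.0 and 40.00 CPM with trastuzumab and 40.4, 43.2 and 44.6 CPM with both antibodies, against 23.8, 28.2 and 24.9 CPM in untreated cells. Treated and untreated libraries did not overlap (trastuzumab 0.69 ± 0.11, adjusted p = 0.000716; both 0.74 ± 0.11, adjusted p = 0.000226). MARS overlaps 27.2% of its exons. SESN2, a leucine sensor that restrains mTORC1, had 27.1, 23.4 and 26.8 CPM with trastuzumab and 25.5, 22.1 and 25.8 CPM with both, against 17.1, 11.2 and 16.1 CPM in untreated cells. It was the largest rise of the set with trastuzumab (log2 fold change 0.80 ± 0.19 (SE), adjusted p = 0.0157), and with both antibodies it was 0.72 ± 0.19 (adjusted p = 0.0184).

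NUPR1 had 98.8, 101 and 95.7 CPM with trastuzumab and 90.5, 124 and 98.2 CPM with both antibodies, against 64.3, 56.4 and 67.7 CPM in untreated cells, again with all treated libraries higher (trastuzumab 0.65 ± 0.14, adjusted p = 0.00791; both 0.73 ± 0.14, adjusted p = 0.00199). ATF4 itself had 301, 290.2 and 308 CPM with trastuzumab and 260, 293 and 320.5 CPM with both, against 217, 205 and 242 CPM in untreated cells. The groups did not overlap, and the rises were 0.44 ± 0.11 (adjusted p = 0.0172) and 0.40 ± 0.11 (adjusted p = 0.0203). The ATF4 calls did not survive GC correction (adjusted p = 0.116 with trastuzumab, 0.0924 with both), scaling by library size alone or a fit of the compared groups alone. With trastuzumab, ATF4 and SESN2 were lost without untreated replicate 2 or trastuzumab replicate 3, leaving 2 of the 4 calls. With both antibodies, the 2 were lost without untreated replicate 2 or replicate 3 of the treated group, and ATF4 also without untreated replicate 1 or replicate 2 of the treated group (adjusted p = 0.0535 to 0.122). The synthesis enzymes of the set gave no call. ASNS, asparagine synthetase, was at -0.02 ± 0.09 with trastuzumab and 0.09 ± 0.09 with both, and PSAT1, of serine synthesis, at 0.09 ± 0.10 and 0.14 ± 0.10. In the blocked fit ATF3 also rose (0.59, adjusted p = 0.0471) and ALDH18A1 fell (-0.24, adjusted p = 0.0439) with trastuzumab.

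**Figure D3:**
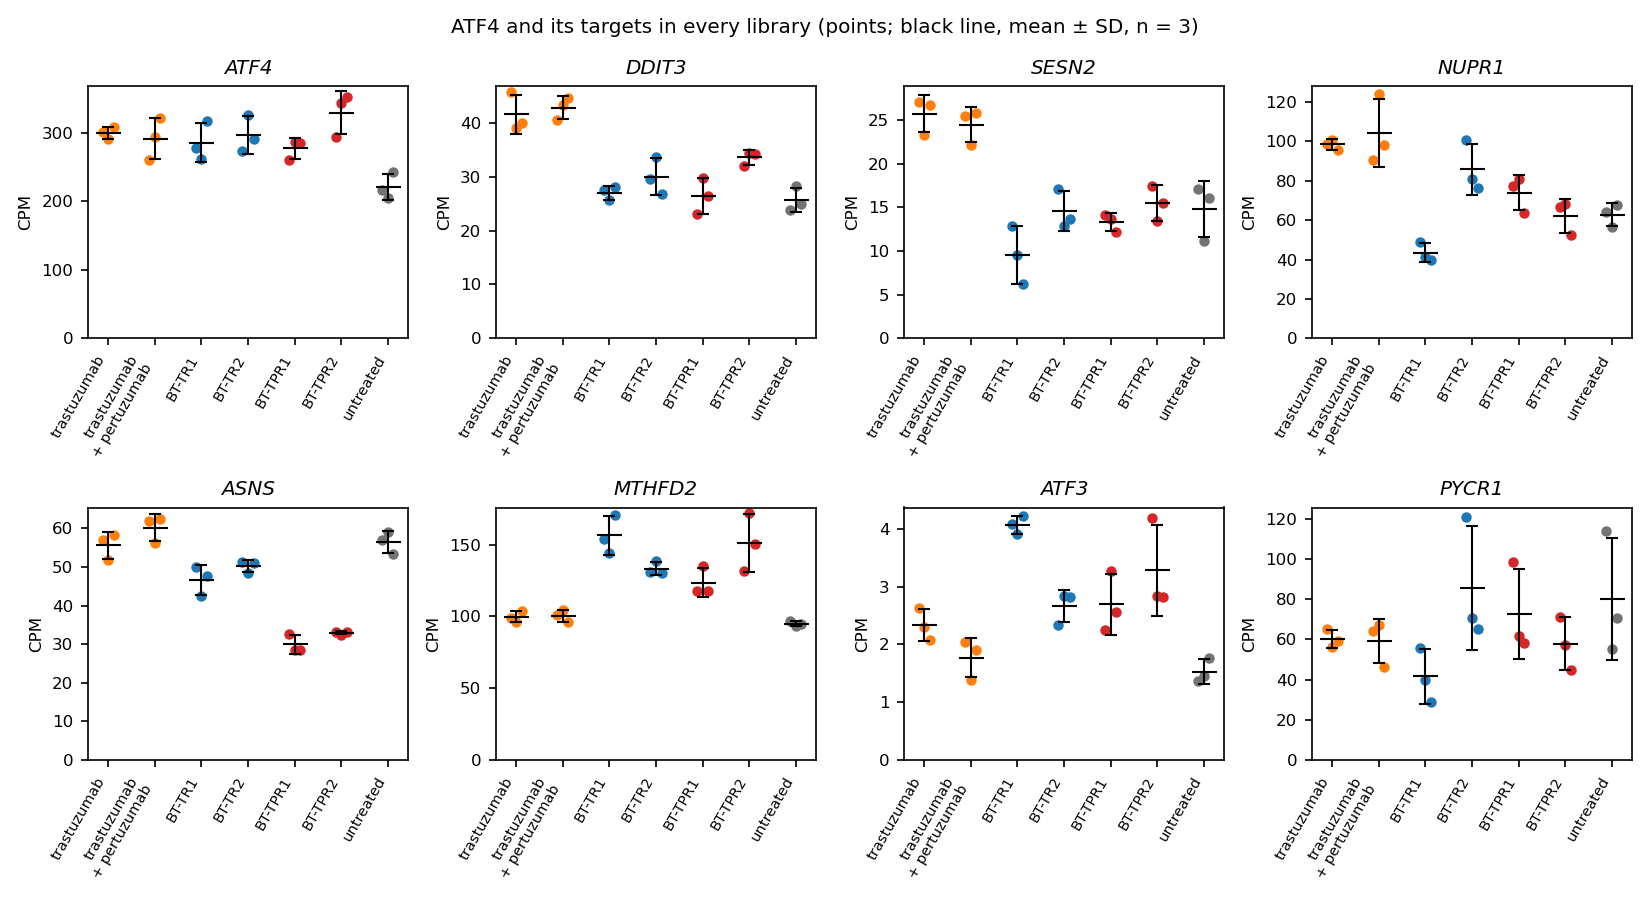
CPM (y axes from 0) of 8 genes of the ATF4 set in each library (points; black line, mean ± SD, n = 3) of the 2 antibody-treated groups, the 4 resistant pools and untreated cells (x axis). DDIT3 and SESN2 are highest in the treated groups, ASNS is lowest in BT-TPR1 and BT-TPR2 (28.5 to 33.3 CPM, against 53.3 to 59.0 in untreated cells), and NUPR1 is lowest in BT-TR1.

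In the resistant pools the ATF4 set split: ATF4, MTHFD2 and ATF3 rose in each pool while ASNS fell in 3 of the 4. Of the 17 genes, the counts were 4 rises and 3 falls in BT-TPR1 (12.9% of all tested genes rose and 14.4% fell), 4 and 2 in BT-TPR2 (15.6% and 16.0%), 3 and 6 in BT-TR1 (21.3% and 22.3%), and 4 and 1 in BT-TR2 (12.7% and 12.1%). The 3 rises in BT-TR1, the 2 falls in BT-TPR2 and the 1 fall in BT-TR2 were below the share over all genes. The 3 falls in BT-TPR1 were near it. Medians were 0.04, -0.01, -0.09 and 0.19, against -0.003, -0.01, -0.01 and -0.002 over all genes. ATF4 had 259, 286 and 285 CPM in BT-TPR1, 294, 342 and 351 in BT-TPR2, 278, 261 and 317 in BT-TR1 and 272, 326 and 291 in BT-TR2, against 217, 205 and 242 CPM in untreated cells. All 12 pool libraries were above the untreated ones, with log2 fold changes of 0.32 ± 0.11, 0.57 ± 0.11, 0.37 ± 0.11 and 0.42 ± 0.11 in the same order (adjusted p = 0.0309, 0.000511, 0.0107 and 0.00771). The call was lost in BT-TPR1 without untreated replicate 1 or 2 or BT-TPR1 replicate 2 or 3 (adjusted p = 0.0627 to 0.129), in BT-TR1 without its replicate 3 (0.057) and in BT-TR2 without its replicate 2 (0.0581). After GC correction it was lost in BT-TPR1 (0.0972) and BT-TR2 (0.0867). With the compared groups alone the ATF4 call was lost in BT-TPR1, BT-TR1 and BT-TR2. It was also lost in BT-TPR1 and BT-TR1 without the filter, and in BT-TR1 by library size alone.

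MTHFD2, a mitochondrial enzyme of folate metabolism, had 118, 135 and 118 CPM in BT-TPR1, 131, 172 and 150.5 in BT-TPR2, 154, 144 and 171 in BT-TR1 and 131, 139 and 130.4 in BT-TR2, against 97.0, 93.5 and 94.6 CPM in untreated cells. Every pool library was higher (0.38 ± 0.10, 0.67 ± 0.10, 0.72 ± 0.10 and 0.49 ± 0.10; adjusted p = 0.00763, 4.48e-05, 2.41e-05 and 0.00135). SLC4A5 overlaps 27.2% of its exons. ATF3 had 2.24, 3.27 and 2.56 CPM in BT-TPR1, 4.19, 2.84 and 2.82 in BT-TPR2, 4.08, 3.92 and 4.22 in BT-TR1 and 2.34, 2.83 and 2.82 in BT-TR2, against 1.37, 1.45 and 1.77 CPM in untreated cells. Its level was low throughout, with at least 25 counts in each library, and no pool library overlapped the untreated ones (0.80 ± 0.21, 1.09 ± 0.21, 1.40 ± 0.21 and 0.79 ± 0.21; adjusted p = 0.00817, 0.000545, 6.26e-05 and 0.00989). In BT-TPR1 both calls were lost without BT-TPR1 replicate 2 (adjusted p = 0.0622 for ATF3 and 0.0758 for MTHFD2), which left 4 of the 7 calls of the set. Both were also lost in BT-TPR1 with the compared groups alone, and MTHFD2 without the filter.

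ASNS had 32.7, 28.5 and 28.6 CPM in BT-TPR1, 33.2, 32.5 and 33.3 in BT-TPR2, 49.99, 42.4 and 47.8 in BT-TR1 and 51.3, 48.4 and 51.1 in BT-TR2, against 57.0, 59.0 and 53.3 CPM in untreated cells. All pool libraries were lower. The values were far below in the dual-resistant pools (-0.92 ± 0.09, adjusted p = 7.99e-07; -0.78 ± 0.09, adjusted p = 4.04e-06) and slightly in BT-TR1 (-0.27 ± 0.09, adjusted p = 0.0225, lost in 4 of 21 fits without 1 library) and BT-TR2, where it did not pass (-0.17 ± 0.09, adjusted p = 0.189). A gene without a protein name on the same strand overlaps 44.6% of the ASNS exons. CHAC1 had 1.38, 1.45 and 0.577 CPM in BT-TPR1 and 1.33, 0.957 and 0.792 CPM in BT-TR1, against 4.50, 2.38 and 2.04 CPM in untreated cells. It fell in both (BT-TPR1 -1.37 ± 0.40, adjusted p = 0.0156; BT-TR1 -1.47 ± 0.43, adjusted p = 0.0109) on as few as 6 counts in a library. The calls were lost without untreated replicate 1 (0.0793 in BT-TR1), and in BT-TPR1 also without its replicate 3. ALDH18A1 fell in BT-TPR1 (-0.46 ± 0.11), BT-TPR2 (-0.52 ± 0.11) and BT-TR2 (-0.32 ± 0.11), the last lost in 12 of 21 fits without 1 library.

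DDIT3 had 23.1, 29.8 and 26.3 CPM in BT-TPR1, 32.0, 34.4 and 34.2 in BT-TPR2, 27.4, 25.6 and 28.0 in BT-TR1 and 29.6, 33.6 and 26.7 in BT-TR2, against 23.8, 28.2 and 24.9 CPM in untreated cells. It passed in BT-TPR2 (log2 fold change 0.39 ± 0.11 (SE), adjusted p = 0.0139, lost without untreated replicate 3 or BT-TPR2 replicate 2) and not in the other pools (0.04 ± 0.11 in BT-TPR1, 0.07 ± 0.12 in BT-TR1 and 0.22 ± 0.11 in BT-TR2). NUPR1 had 49.1, 41.3 and 39.99 CPM in BT-TR1 and 101, 80.8 and 76.2 CPM in BT-TR2, against 64.3, 56.4 and 67.7 CPM in untreated cells. It was below all untreated libraries in BT-TR1 (log2 fold change -0.53 ± 0.14 (SE), adjusted p = 0.00674) and above them in BT-TR2 (log2 fold change 0.45 ± 0.14 (SE), adjusted p = 0.0256, lost without untreated replicate 2 or BT-TR2 replicate 1). PHGDH, the first enzyme of serine synthesis, had 89.5, 62.0 and 56.4 CPM in BT-TR1, against 140.1, 91.8 and 112 CPM in untreated cells (log2 fold change -0.72 ± 0.19 (SE), adjusted p = 0.00574), and PYCR1 55.9, 40.02 and 28.8 CPM, against 114, 55.3 and 70.9 CPM (log2 fold change -0.94 ± 0.30 (SE), adjusted p = 0.0161). The PHGDH groups did not overlap and the PYCR1 groups did by a narrow margin. SESN2 also fell in BT-TR1 (-0.61 ± 0.20, adjusted p = 0.0214), and ATF5, a relative of ATF4, rose in BT-TPR1 (0.45 ± 0.10, adjusted p = 0.00319), with 21.2% of its exons overlapping NUP62. The ATF5 call was lost with the compared groups alone. In BT-TR1 the calls of CHAC1, SESN2 and PYCR1 were lost after GC correction, where SESN2 turned to 0.02, and without BT-TR1 replicate 3 the set had 5 calls in place of 9. In BT-TR2 it had 3 in place of 5 without untreated replicate 2, BT-TR2 replicate 1 or BT-TR2 replicate 2. In the blocked fit BT-TPR2 had 5 rises and 4 falls in the set. TRIB3 (adjusted p = 0.0266) was added to the rises and CHAC1 (0.0145) and PYCR1 (0.0127) to the falls. Of all 17650 tested genes, 4334 rose and 4685 fell in BT-TPR2 in that fit, so both counts of the set were near the share over all genes. The block added rises of PSPH in BT-TPR1 (0.0365) and TRIB3 in BT-TR1 (0.00217). BT-TR2 had 6 rises and 3 falls in the set, TRIB3 and SHMT2 being added to the rises and CHAC1 and PHGDH to the falls. Of all tested genes, 4049 rose and 4027 fell in BT-TR2 with the block, and the 3 falls of the set were below that share.

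Set against cells under the antibody to which they are resistant, the pools again had lower folding genes. The pools were free of antibody at harvest, so resistance and the absence of antibody cannot be told apart here. In the dual-resistant pools against cells given both antibodies, 15 of 24 folding genes fell and 0 rose, where 17.7% of all tested genes fell and 15.1% rose (median -0.34, against 0.03 over all genes). In the trastuzumab-resistant pools against cells given trastuzumab, 8 fell and 0 rose, where 17.2% fell and 17.6% rose (median -0.21, against -0.003). HSPA5 fell in both, without overlap (-0.99 ± 0.12, adjusted p = 2.94e-06; -0.59 ± 0.12, adjusted p = 0.000858). ERN1, with 16.4, 14.9 and 16.7 CPM in BT-TPR1 and 14.4, 12.6 and 13.7 CPM in BT-TPR2, against 25.1, 20.7 and 20.7 CPM with both antibodies, also fell without overlap (log2 fold change -0.59 ± 0.10 (SE), adjusted p = 9.88e-05). In the ATF4 set 4 genes rose and 6 fell against both antibodies, and 4 rose and 4 fell against trastuzumab. DDIT3 (-0.52 ± 0.10 and -0.55 ± 0.10), SESN2 (-0.77 ± 0.16 and -1.11 ± 0.16) and NUPR1 (-0.62 ± 0.12 and -0.69 ± 0.12) fell in both comparisons. ATF4 passed in neither (0.05 ± 0.09, adjusted p = 0.704; -0.04 ± 0.09, adjusted p = 0.748). Without replicate 1 of the cells given both antibodies the folding count was 9 in place of 15, and without trastuzumab replicate 2 it was 5 in place of 8. In the blocked fit 26 of 41 genes passed against trastuzumab in place of 16, with 12 folding genes falling and 2 rising (DNAJC3 and CALU). In that fit 4702 of all 17650 tested genes rose and 4679 fell against trastuzumab, and the 2 folding rises were below that share. By library size alone, 57.2% of all calls against both antibodies were rises, against 46.0% as scaled here, and HSP90B1, HYOU1, HERPUD1, XBP1 and ATF6 were not called. HERPUD1 and XBP1 were also not called there after GC correction (adjusted p = 0.0514 to 0.107).

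Other genes of the same compartment, taken from lists of ER folding enzymes (28 tested), the translocon and signal peptide machinery (24) and ER degradation (19), had more falls than rises in each pool but BT-TR1, where the translocon and ER degradation lists had as many of each. Of the 28 other folding genes, 16 fell and 1 rose in BT-TPR1, 12 and 0 in BT-TPR2, 10 and 4 in BT-TR1 and 13 and 0 in BT-TR2, against 3 and 0 with either treatment. TMX1, a membrane-bound thioredoxin of the ER, fell in BT-TPR1 (log2 fold change -1.43 ± 0.14 (SE), adjusted p = 6.08e-07), and SERP1, which stabilises membrane proteins, was the gene that rose there (0.49 ± 0.13, adjusted p = 0.00916). In the translocon list 12 fell and 2 rose in BT-TPR1, 7 and 2 in BT-TPR2, 3 and 3 in BT-TR1 and 9 and 3 in BT-TR2, against 2 and 0 with either treatment. SEC61B, a small subunit of the channel, rose in BT-TPR1 (0.47 ± 0.13, adjusted p = 0.0109). In the ER degradation list 7 fell in BT-TPR1, 3 in BT-TPR2, 4 in BT-TR1 and 5 in BT-TR2, with 4 rises among the pools, all in BT-TR1. UBE2J1, an ER ubiquitin-conjugating enzyme, rose with trastuzumab (0.72 ± 0.17, adjusted p = 0.0136) and with both antibodies (0.80 ± 0.17, adjusted p = 0.00429). Read against the share of all tested genes that fell in each pool (14.4%, 16.0%, 22.3% and 12.1% in the order above), the ER degradation falls in BT-TPR2 (3 of 19) and BT-TR1 (4 of 19), and the translocon falls in BT-TR1 (3 of 24), were near or below it. Of all tested genes 12.9%, 15.6%, 21.3% and 12.7% rose in the same pools, and the rises in these lists were all near or below those shares. In treated cells 3.78% of all tested genes fell with trastuzumab and 6.02% with both antibodies. UBE2J1 with trastuzumab was lost without untreated replicate 2 or trastuzumab replicate 3 (adjusted p up to 0.101). Counts moved with single libraries. Calls of the other folding genes ranged from 10 to 18 in BT-TPR1 (lowest without untreated replicate 2 or BT-TPR1 replicate 2) and from 7 to 15 in BT-TR1 (lowest without BT-TR1 replicate 3, with 8 without untreated replicate 1 and 9 without BT-TR1 replicate 2). Translocon calls fell to 6 of 14 in BT-TPR1 without its replicate 2 (8 without untreated replicate 2), to 3 of 9 in BT-TPR2 without untreated replicate 2 or its own replicate 2 (5 without BT-TR1 replicate 2), to 6 of 12 in BT-TR2 without untreated replicate 2 (7 without its replicate 2) and to 3 of 6 in BT-TR1 without untreated replicate 1. ER degradation calls fell to 3 of 7 in BT-TPR1 without its replicate 2 (4 without untreated replicate 1) and to 1 of 3 in BT-TPR2 without untreated replicate 2 (5 without its own replicate 1). In BT-TR1 they fell to 3 of 8 without untreated replicate 1 (4 without its replicate 3), and in BT-TR2 to 1 of 5 without its replicate 2 (2 without its replicate 3, 3 without untreated replicate 1 or 2). The few calls in treated cells ranged from 0 to 5 over these lists.

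Among 25 further ATF4 targets, 8 fell and 2 rose in BT-TPR1, 7 and 5 in BT-TPR2, 10 and 4 in BT-TR1 and 7 and 3 in BT-TR2, with 0 falls and 2 rises after trastuzumab and 1 fall and 2 rises after both antibodies. Of all tested genes, 3.78% fell and 3.71% rose with trastuzumab, and 6.02% fell and 6.39% rose with both antibodies. The 1 fall with both antibodies was below that share and the 2 rises near it. The shares of all tested genes that fell and rose were 14.4% and 12.9% in BT-TPR1, 16.0% and 15.6% in BT-TPR2, 22.3% and 21.3% in BT-TR1 and 12.1% and 12.7% in BT-TR2, so that several of these counts, the 2 rises in BT-TPR1 and the 4 in BT-TR1 among them, were below the share over all genes. STC2, a secreted glycoprotein, fell in BT-TPR1 (-2.005 ± 0.12, adjusted p = 1.06e-09), BT-TPR2 (-1.64 ± 0.12), BT-TR1 (-1.75 ± 0.12) and BT-TR2 (-1.596 ± 0.12) and rose with trastuzumab (0.46 ± 0.12, adjusted p = 0.0234). SLC7A11, the cystine transporter, fell in BT-TPR1 (-1.61 ± 0.25), BT-TPR2 (-1.69 ± 0.25), BT-TR1 (-0.92 ± 0.25) and BT-TR2 (-1.34 ± 0.24). Other genes of this list went up. KLHL24 had 75.4, 91.2 and 84.8 CPM in BT-TPR1, against 35.3, 48.2 and 46.05 CPM in untreated cells. Further called rises of KLHL24 were those of BT-TPR2, BT-TR1 and either treatment, but not BT-TR2. CEBPG was called higher in each pool, and MTHFD1L in each pool but BT-TPR1. GDF15, at 1.65 CPM or less, was called higher in the BT-TR pools and after the combined treatment. Of 17 sensors and regulators of eIF2, 6 fell and 2 rose in BT-TPR1, 5 and 1 in BT-TPR2, 3 and 8 in BT-TR1 and 2 and 3 in BT-TR2, against 0 and 0 with trastuzumab, where 5 were at an unadjusted p under 0.05 (edgeR), and 0 and 1 with both antibodies. One of the BT-TR1 falls was EIF4EBP1, a translation repressor (-0.76 ± 0.23, adjusted p = 0.0138), whose value turned to 0.51 after GC correction (adjusted p = 0.0955) and 0.54 with the block as well (0.0116). Of 12 tRNA synthetase genes that respond to ATF4, 2 fell and 1 rose in BT-TPR1, 1 and 0 in BT-TPR2, 0 and 5 in BT-TR1 and 1 and 0 in BT-TR2, against 0 and 0 with either treatment, where 4 were at an unadjusted p under 0.05 with trastuzumab and 3 with both antibodies (edgeR). Of the 12, 2 falls in BT-TPR1, 1 in BT-TPR2 and 1 in BT-TR2 were near or below the shares over all genes. The counts at an unadjusted p are given without their share over all genes and are not read as results about these lists. Without 1 library the counts of the sensors went to 4 of 8 in BT-TPR1 (untreated replicate 2; 5 without BT-TPR1 replicate 2) and 3 of 5 in BT-TR2 (untreated replicate 2 or BT-TR2 replicate 3). Those of the further targets went to 6 of 10 in BT-TR2 (its replicate 2), and those of the synthetases to 1 of 3 in BT-TPR1 (its replicate 2) and ranged from 0 to 2 in BT-TR2.

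**Figure D4:**
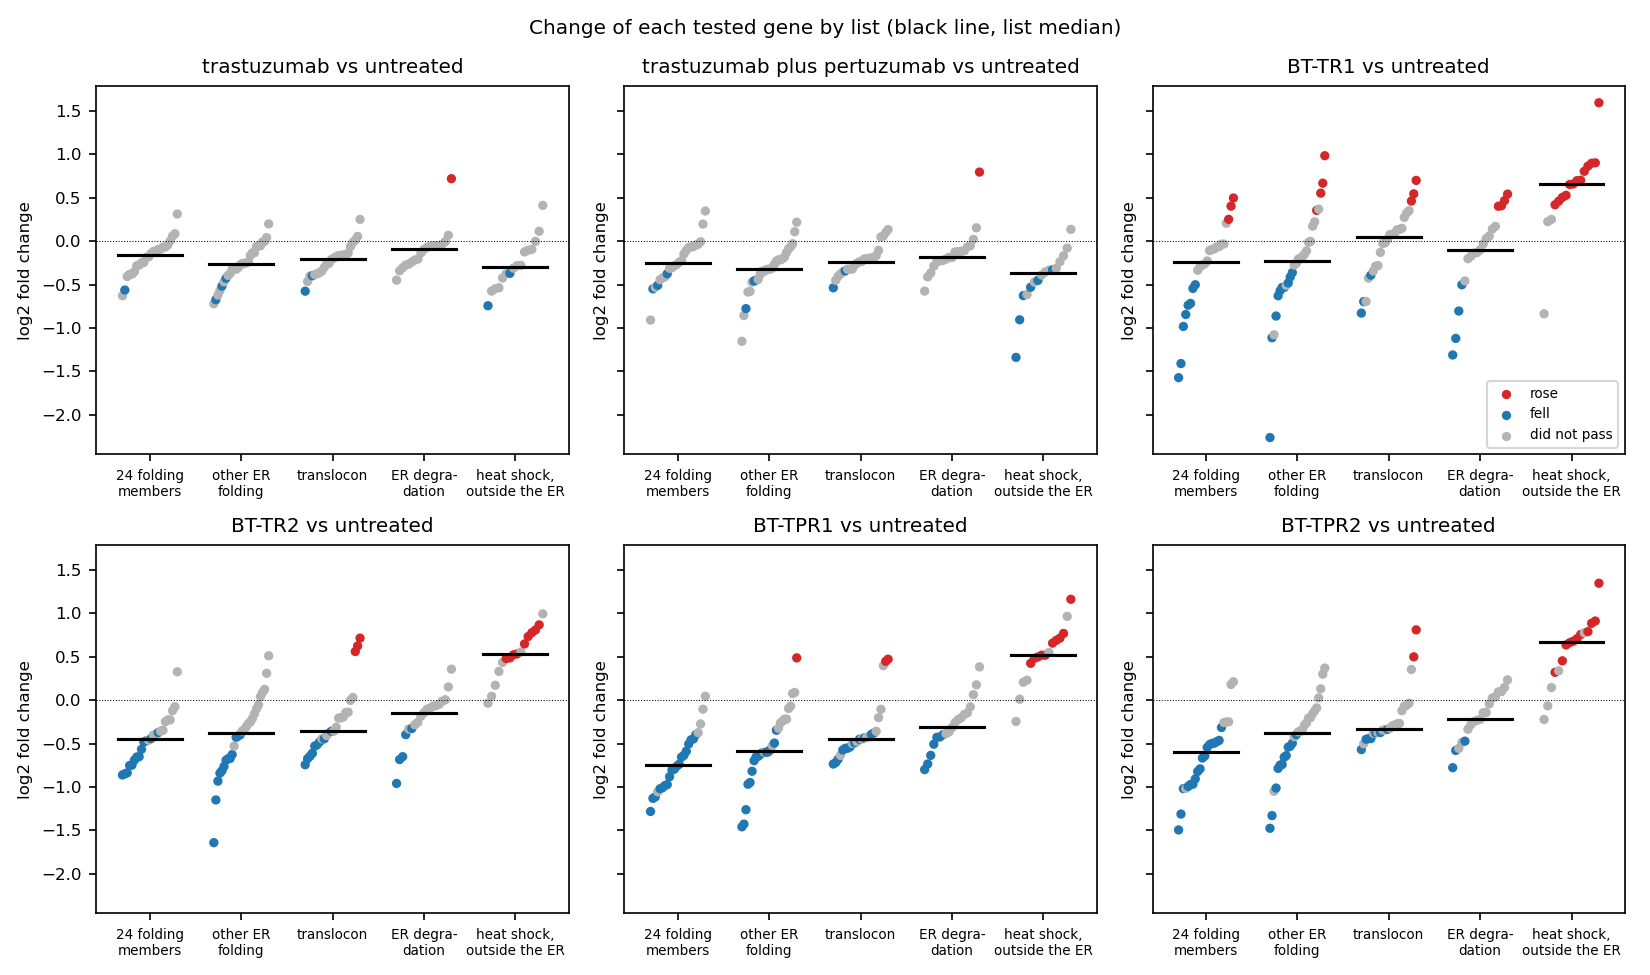
Log2 fold change against untreated cells (one axis) of every gene of 5 lists (the 24 folding genes, other ER folding genes, translocon, ER degradation, heat shock outside the ER) in 6 groups, each point a gene coloured by whether it rose, fell or did not pass the test, and the black line the list's median. The ER lists lie mostly below 0 in the resistant pools except the translocon list in BT-TR1, and 19 of 24 folding genes fell in BT-TPR1, while the heat shock genes outside the ER lie mostly above 0 there and mostly below it in treated cells.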

How the data were processed

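RNA-seq gene counts of 21 libraries (7 groups of 3, grouped by their labels) were used as deposited. Per the submitters' processing notes, reads were handled with Bowtie2, featureCounts and DESeq2 on hg38. Versions, annotation and strandedness are not given in the sources used here. The deposited counts are whole numbers per gene, and a second deposited table holds log2-scale variance-stabilized values, used only in an alternative. Libraries held 7939270 to 21746391 counts. Replicates of a group differed beyond sampling noise (chi-square per degree of freedom 5.04 to 78.7), so none was counted as a duplicate.

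Counts were tested with edgeR 4.0.16 (R 4.3.3) in 1 quasi-likelihood fit over all libraries, with TMM scaling and a term per group (14 residual degrees of freedom), for 12 comparisons. The filter on low counts used a minimum count of 10 and a minimum total of 15, which left 17650 of 37355 genes. P-values were adjusted over these by Benjamini and Hochberg's method, and values under 0.05 were called. CPM is computed from the counts and the TMM-scaled library sizes. The SE of a log2 fold change was derived from the F statistic. The fit was tested on simulated counts drawn without a replicate or GC effect, so that test does not cover such effects in these libraries. GC content and exon length came from GENCODE 29 (36530 genes matched, 17554 of those tested with a GC value), promoters from RefSeq GRCh38.p14.

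The alternatives were RLE scaling, library size alone, no filter, the replicate number as a block, replicates 2 and 3 alone, a GC correction (a spline of 5 degrees of freedom) with and without the block, the compared groups alone, DESeq2 1.42.0, limma 3.58.1 on the deposited log2 values, and each library left out in turn. Replicate numbers come from the labels. Deviations of same-numbered libraries from their group means correlated above 0.1 for every number in 10 of 12 comparisons. By this rule the numbers were taken to pair the libraries there. They did not in trastuzumab plus pertuzumab against untreated (r = -0.0106 for replicate 2) or BT-TR2 against BT-TR1 (r = 0.0732 for replicate 2). For replicate 2 a differently numbered library correlated more in BT-TPR1 (0.290 against 0.264) and BT-TPR2 (0.316 against 0.186) against untreated cells. So it did in the BT-TPR pools against the BT-TR pools (0.369 against 0.214) or both antibodies (0.426 against 0.207), and between the treatments (0.219 against 0.187). For replicate 3 this held in BT-TR1 against untreated cells (0.326 against 0.312). Pairing of every number is thus not shown there.

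HSPA5, XBP1, ATF4 and DDIT3 were named throughout, with the 4 largest called changes of each set in each comparison against untreated cells; other genes are named to complete a count. The members and lists were chosen with earlier results of these data known. HSPA1A, ATF6B, DERL3, SELENOK and CD3E were not analysed here.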

Additional observations from a re-analysis of the deposited data

Results flagged for a closer look

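The 2 trastuzumab-resistant pools differed from each other, by the direct test of BT-TR2 against BT-TR1 (edgeR, adjusted over all genes, 3 libraries each), in 10 of the 41 genes. The log2 difference was -0.487 for HSPA5, -0.656 for HSP90B1, -0.601 for CANX, -0.48 for DNAJC3, -0.478 for SEL1L, -0.374 for EDEM1, -0.479 for ATF6 and -0.607 for ATF3, all lower in BT-TR2, and 0.98 for NUPR1 and 1.035 for PYCR1, both higher in BT-TR2. NUPR1 lay above untreated cells in BT-TR2 and below them in BT-TR1. Without BT-TR1 replicate 2, BT-TR1 replicate 3 or BT-TR2 replicate 1, 1 of the 10 was left. Differences between these pools went with GC content over all genes (r = 0.629), and its part in the result was not tested beyond the correction reported here.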

How the results depend on the processing

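Most of the 41 genes kept their direction. In trastuzumab against untreated cells 5 genes were called; the count was 3 by library size alone or with the compared groups alone, 8 after GC correction or with DESeq2, 13 with the replicate block and 11 with GC correction and block. In both antibodies against untreated cells (7) it was 18 with the replicate block, with or without GC correction, and 13 with replicates 2 and 3 alone. In BT-TR2 against untreated cells (18) it was 28 with the replicate block or GC correction, 33 with the 2 together and 11 with the compared groups alone. BT-TR2 against BT-TR1 (10) gave 21 with the replicate block, 16 with GC correction and block and 4 with the compared groups alone. BT-TPR2 against BT-TPR1 (0) gave 1 with RLE scaling or DESeq2, 6 with the replicate block and 5 with GC correction and block. The BT-TR pools against trastuzumab (16) gave 26 with the replicate block. For both antibodies against untreated cells and BT-TR2 against BT-TR1, where the numbers did not pair the libraries, the folding genes had 10 falls and 1 rise and 10 falls and 4 rises with the block. Among all tested genes that fit gave 3149 falls and 2601 rises for both antibodies against untreated cells. For BT-TR2 against BT-TR1 it gave 3541 falls and 4014 rises. The folding rises were below the share over all genes in both comparisons. The block ended no call in any comparison. Over all tested genes, calls also increased with the block in each comparison. With trastuzumab, 654 rises and 667 falls became 2025 and 2604. The cause of these shifts was not tested.

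Leaving out 1 library gave 2 to 8 calls with trastuzumab, 4 to 8 with both antibodies, 13 to 22 in BT-TR1, 11 to 20 in BT-TR2, 21 to 27 in BT-TPR1, 19 to 26 in BT-TPR2, 1 to 14 in BT-TR2 against BT-TR1, 0 to 1 in BT-TPR2 against BT-TPR1, 13 to 19 in the BT-TPR against the BT-TR pools, 11 to 18 in the BT-TR pools against trastuzumab and 18 to 28 in the BT-TPR pools against both antibodies.

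Directions turned mostly for values near 0, with SESN2 (-0.61) and EIF4EBP1 (-0.76), both called falls in BT-TR1, as the exceptions. With replicates 2 and 3 alone, HSPA5 with trastuzumab was -0.058, and in both antibodies against trastuzumab XBP1 was -0.003 and ATF4 0.038. After GC correction, XBP1 and ATF4 in that comparison were -0.03 and 0.012 (XBP1 -0.032 with the block), and SESN2 in BT-TR1 was 0.023 (0.07 with the block). EIF4EBP1 in BT-TR1 was 0.512 after GC correction and 0.539 with the block. Without 1 library, HSPA5 with both antibodies ranged from -0.122 to 0.089, XBP1 with both antibodies from -0.13 to 0.001, DDIT3 in BT-TPR1 from -0.064 to 0.143 and XBP1 in BT-TR1 from -0.086 to 0.011. In both antibodies against trastuzumab, XBP1 ranged from -0.072 to 0.083, ATF4 from -0.115 to 0.043 and DDIT3 from -0.002 to 0.117.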

Other observations

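Heat shock genes that work outside the ER moved the other way from the ER folding genes in the resistant pools. Of 16 such genes tested, 10 rose and 0 fell in BT-TPR1, 11 and 0 in BT-TPR2, 13 and 0 in BT-TR1 and 9 and 0 in BT-TR2, where 12.9%, 15.6%, 21.3% and 12.7% of all tested genes rose. With trastuzumab 0 rose and 2 fell, where 3.78% of all tested genes fell, and with both antibodies 0 rose and 6 fell, where 6.02% fell. They took 0.841% to 0.924% of normalised counts in BT-TPR1, 0.804% to 1.01% in BT-TPR2, 1.04% to 1.31% in BT-TR1 and 0.893% to 0.994% in BT-TR2, then 0.491% to 0.617% with trastuzumab and 0.481% to 0.603% with both antibodies, against 0.604% to 0.87% in untreated cells. DNAJA1, a co-chaperone of the cytosolic HSP70 proteins, had 319.5, 376 and 353 CPM in BT-TPR1 and 310, 411 and 438 CPM in BT-TPR2, against 157, 220 and 238 CPM in untreated cells (BT-TPR1 0.77 ± 0.17, adjusted p = 0.00259; BT-TPR2 0.91 ± 0.17, adjusted p = 0.000501; log2 fold change ± SE, edgeR). HSPD1, the mitochondrial chaperonin HSP60, rose in BT-TR1 (0.90 ± 0.13, adjusted p = 4.78e-05), and DNAJB1, the main inducible partner of HSP70, in BT-TR2 (0.87 ± 0.09, adjusted p = 1.34e-06). Without BT-TPR2 replicate 2 or 3 the BT-TPR2 count was 7 in place of 11, and the counts in treated cells moved with single libraries, between 0 and 5 with trastuzumab.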
